A study of Mus musculus with 9 samples.

Results

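The genes described here are 9 markers of mesothelium and of the surface epithelium that covers the gonad: Upk3b, Upk1b, Tm4sf5, Msln, Lrrn4, Bnc1, Krt19, Krt18 and Krt8. They were taken from the 38560 genes of the count table by symbol, and several of them were selected on their counts in these same data, being much higher in the Leydig than in the Sertoli libraries. The Leydig over Sertoli difference is therefore given for them as a description and not as a finding.

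The libraries came from testes of Sf1-eGFP mice at 12.5 dpc (days post coitum), a strain with a green fluorescent reporter tied to the gene of the steroidogenic factor SF1. All 3 groups share this strain, stage and reporter, and differ in the population collected by cell sorting, named Leydig, Interstitial and Sertoli in the labels. Each sample pooled the RNA of about 10 sorting experiments with 4 to 10 litters in each, and cells bearing CD31, which marks germ and endothelial cells, were to be removed. The protocols used here describe no sorting gates. The gonads were dissected together with the mesonephros, and no source used here states that a layer of the surface was removed or kept. Samples A and B are separate pools, and by elimination replicate C is the mix of A and B that the protocol describes, so tests used A and B (6 libraries) and values are given for all 9. Because the samples are bulk RNA, fewer cells of a type and less RNA per cell cannot be told apart.

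Mesothelium is the single cell layer that lines the body cavities. On the fetal gonad it forms the coelomic or surface epithelium, from which supporting and interstitial cells arise early in gonad formation. It is an epithelium of mesodermal origin, with simple keratins in its cytoskeleton and membrane proteins such as uroplakins and mesothelin on its surface. None of the 3 populations is labelled as mesothelium, so these genes are read here only as part of the RNA of the 3 populations.

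The libraries held between 33.1 M and 39.2 M reads in genes. Sertoli markers were highest in the Sertoli libraries (summed level of 10 genes 3703 to 3888 CPM, read counts scaled to the depth of the library after TMM normalisation), at 1090 to 1140 CPM in Leydig and 149 to 173 CPM in Interstitial. Leydig markers were at 236 to 447 CPM (6 genes) in the Leydig libraries, at 250 to 300.2 CPM in Sertoli and at 42.2 to 65.9 CPM in Interstitial. The Leydig libraries thus overlapped the Sertoli libraries in the Leydig markers and held more Sertoli marker RNA than the Interstitial libraries.

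All 9 genes passed the low-count filter of the fit, but Msln did so only through the Interstitial libraries. The other 8 had at least 11 reads in each of the 9 libraries. Leydig against Interstitial asks whether these genes differ between the populations labelled Leydig and Interstitial. With both pools of each population, 7 of the 9 were higher in Interstitial and none in Leydig by edgeR's quasi-likelihood test at an adjusted p of 0.05, where 23.2% of the 18048 genes tested were called higher in Interstitial and 22.0% in Leydig (45.1% in either direction). Msln is 1 of the 7, and without it the count was 6 of 8. The 7 were also called higher in Interstitial than in Sertoli, as were 19.7% of all genes tested in both comparisons. The largest difference with ample reads was that of Krt19, which was 3.42-fold higher in Interstitial, and Bnc1 was 2.29-fold higher. Without Interstitial pool A the count fell from 7 to 4, with Upk3b, Upk1b and Msln no longer past the threshold. This contrast shares the Leydig libraries with the one that helped to choose the genes.

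For 7 genes (Upk3b, Upk1b, Tm4sf5, Msln, Lrrn4, Krt19 and Bnc1), every Interstitial library was above every Leydig library and every Leydig library above every Sertoli library, an order that 11.7% of all genes tested had. The step from Leydig to Sertoli was part of how the genes were chosen, so nothing is read from it or from the full order. Of all genes tested, 30.3% had every Leydig library above every Sertoli library. Every Interstitial library was above every Leydig library for 8 of the 9 genes (34.0% of all genes tested), and above every Sertoli library for 8 as well (43.0%). The choice of genes used the Leydig and Sertoli libraries too, so these counts are a description. Without Msln, which passed the filter only through Interstitial, the full order held for 6 of 8 genes. Interstitial was then above Leydig for 7 of 8 and above Sertoli for 7 of 8. The Leydig to Sertoli step of Msln set 3 reads in Leydig A and B against 3 in Sertoli C. Krt18 was highest in Interstitial and lowest in Leydig, and Krt8 was highest in Sertoli, an order with every Sertoli library on top that 22.0% of all genes tested had.

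**Figure D1:**
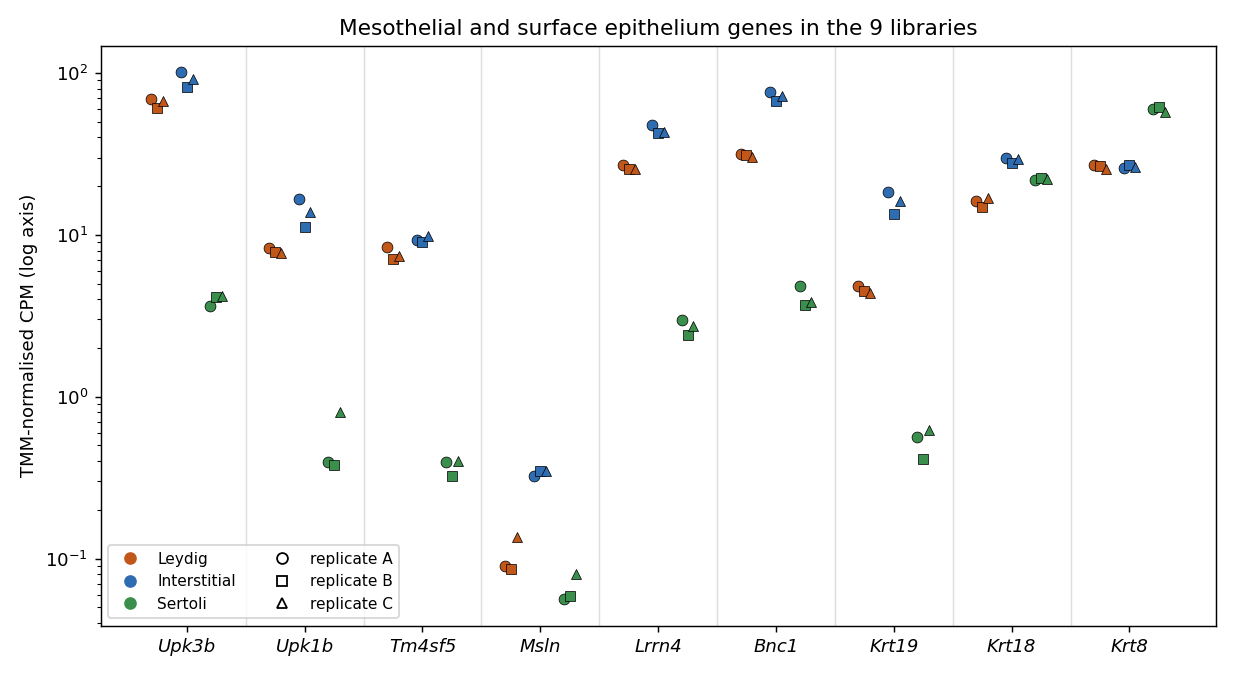
TMM-normalised CPM (log axis) of the 9 genes in each of the 9 libraries, coloured by population with the replicate as the symbol. The Interstitial points lie above the Leydig points for 8 genes, and Krt8 alone has its highest values, 57.2 to 61.4 CPM, in Sertoli.

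The promoters of 4 genes of the first group are shown because these genes shared one order of populations. Each line gives the bases before the start of the gene in RefSeq (GRCm38.p6), 5' to 3' on the strand of the gene, without bases that GENCODE M21 places in the first exon. RefSeq's table matched 6 of the 9 genes (Upk3b, Tm4sf5, Lrrn4, Bnc1, Krt8 and Krt18). Capitals mark matches, on either strand, to AGGTCA (a core motif bound by nuclear receptors such as SF1), GGAATG (TEAD factors) or GATAA (GATA factors).
Upk3b (chr5:136038246-136038495, + strand): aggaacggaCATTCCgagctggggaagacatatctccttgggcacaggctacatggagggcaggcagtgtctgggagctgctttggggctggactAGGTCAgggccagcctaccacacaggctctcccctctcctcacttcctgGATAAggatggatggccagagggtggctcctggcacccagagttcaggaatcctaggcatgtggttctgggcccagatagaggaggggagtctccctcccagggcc
Tm4sf5 (chr11:70505024-70505243, + strand): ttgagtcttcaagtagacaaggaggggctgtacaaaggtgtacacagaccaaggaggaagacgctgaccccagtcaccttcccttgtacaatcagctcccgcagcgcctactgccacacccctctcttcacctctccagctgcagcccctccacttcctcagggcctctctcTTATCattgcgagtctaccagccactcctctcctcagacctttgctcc
Lrrn4 (chr2:132880892-132881112, - strand): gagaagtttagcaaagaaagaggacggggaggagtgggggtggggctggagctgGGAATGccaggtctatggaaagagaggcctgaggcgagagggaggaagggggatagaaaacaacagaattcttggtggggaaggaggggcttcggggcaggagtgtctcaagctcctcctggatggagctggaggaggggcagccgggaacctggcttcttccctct
Bnc1 (chr7:81992300-81992549, - strand): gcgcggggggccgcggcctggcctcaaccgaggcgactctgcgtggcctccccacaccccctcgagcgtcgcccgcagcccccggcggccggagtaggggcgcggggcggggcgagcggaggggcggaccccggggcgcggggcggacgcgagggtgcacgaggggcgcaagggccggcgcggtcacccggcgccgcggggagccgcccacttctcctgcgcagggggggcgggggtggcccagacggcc

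Over the 250 bases before each start, both strands searched, AGGTCA stood in the windows of Upk3b, Lrrn4, Krt8 and Krt18, and in 14.0% of 32851 promoters of RefSeq. The match in Lrrn4 lies among the 29 bases left out above. GGAATG was found in Upk3b and Lrrn4 (12.6% of promoters) and GATAA in Upk3b, Tm4sf5, Krt8 and Krt18 (22.6%). TGAGTCA, the AP-1 motif, was in none of the 6 windows (4.46% of promoters), and CACCC, a core bound by KLF factors, was in all 6 but also in 52.0% of promoters. No matches overlapped each other in these windows. Bnc1 held none of the first 4 motifs, and its window had the highest GC content of the 6, at 83.6%, against 56.4 to 60.8% in the others. The windows of Krt8 and Krt18 held the same motifs as each other, and the window of Upk3b, a gene of the first group, held all of these as well. The shared motifs were thus not particular to Krt8 and Krt18. These matches describe letters in a window and were not tested for any role.

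Among the genes for surface membrane proteins, Upk3b was the most abundant. Upk3b (ENSMUSG00000042985, chromosome 5, 136038496 to 136046487; all coordinates on GRCm38) encodes a uroplakin, a protein of the plaques of urothelium that mesothelium makes as well. Upk3b was at 69.2, 60.4 and 67.1 CPM in Leydig A, B and C, at 101, 81.5 and 91.9 CPM in Interstitial, and at 3.62, 4.11 and 4.17 CPM in Sertoli. The Leydig and Interstitial libraries did not overlap, and Sertoli lay far below both. It was lower in Leydig than in Interstitial (log2 difference, Leydig minus Interstitial, -0.48 with an SE of 0.11; edgeR adjusted p 0.00791). Without Interstitial pool A, the higher of the 2 Interstitial pools, the difference was -0.33 with an edgeR adjusted p of 0.053.

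Upk1b encodes a tetraspanin of the same plaques (chromosome 16, 38773184 to 38800328). Upk1b was at 8.27, 7.81 and 7.76 CPM in Leydig, 16.7, 11.2 and 13.8 CPM in Interstitial, and 0.393, 0.381 and 0.807 CPM in Sertoli. Interstitial was above Leydig in every library, but Interstitial pool A was 1.5 times pool B. The log2 difference, Leydig minus Interstitial, was -0.78 ± 0.19 (edgeR adjusted p 0.00915), and -0.47 without Interstitial pool A (edgeR adjusted p 0.0706). In Sertoli the values of A and B rest on 14 and 13 reads, and replicate C, taken as their mix, had 30.

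Tm4sf5, which encodes a membrane protein with 4 transmembrane segments of the L6 family (chromosome 11, 70505244 to 70511178), was the member with the smallest gap between Leydig and Interstitial apart from Krt8. Tm4sf5 was at 8.45, 7.09 and 7.41 CPM in Leydig, 9.31, 9.06 and 9.88 CPM in Interstitial, and 0.393, 0.323 and 0.404 CPM in Sertoli. Its difference of -0.23 ± 0.15 between Leydig and Interstitial did not pass the threshold (edgeR adjusted p 0.24; 95% interval -0.56 to 0.11). It did so with all 9 libraries (-0.30, edgeR adjusted p 0.0168). The Leydig libraries of Tm4sf5 were all below the Interstitial ones, with the nearest values, Leydig A and Interstitial B, a small step apart.

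Lrrn4 (chromosome 2, 132868305 to 132880891) encodes a leucine-rich repeat membrane protein known from mesothelium. Lrrn4 was at 27.1, 25.4 and 25.4 CPM in Leydig, 47.9, 42.6 and 43.2 CPM in Interstitial, and 2.97, 2.4 and 2.72 CPM in Sertoli. The populations were well apart, and Leydig minus Interstitial was -0.77 ± 0.10 (log2; edgeR adjusted p 0.000484).

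Msln, the gene of mesothelin (chromosome 17, 25748613 to 25754378), an anchored surface protein of mesothelium, was barely detected. Msln had 3, 3 and 5 reads in Leydig, 13, 12 and 14 in Interstitial and 2, 2 and 3 in Sertoli, which is at most 0.349 CPM. Summed over the 3 libraries of each population and scaled by depth, the Interstitial to Leydig ratio was 3.33 (95% interval 1.67 to 7.22, exact binomial) and the Interstitial to Sertoli ratio 5.6 (2.48 to 14.8). These intervals cover counting error only, since PCR copies are not independent molecules. Its edgeR calls (Leydig minus Interstitial -1.87 ± 0.55, edgeR adjusted p 0.0154) carry little weight, because the gene was tested only through its Interstitial reads. DESeq2 did not make them (adjusted p 0.229 and 0.1 against Leydig and Sertoli), and without any 1 of the Leydig or Interstitial pools the difference from Leydig had edgeR adjusted p of 0.0731 to 0.094.

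Bnc1 (chromosome 7, 81966672 to 81992292) encodes basonuclin, a zinc finger protein of epithelia and germ cells, and is the one nuclear factor of the set. Bnc1 was at 31.5, 31.3 and 30.4 CPM in Leydig, 76.5, 67.1 and 72.1 CPM in Interstitial and 4.85, 3.7 and 3.82 CPM in Sertoli. The 3 Leydig libraries lay close together and well below the lowest Interstitial library. Its difference was -1.18 ± 0.11 (Leydig minus Interstitial; edgeR adjusted p 7.93e-05). A pseudogene on the opposite strand, 4833418N17Rik, overlaps Bnc1 and had at most 3 reads in a library. The related Bnc2 was at 64.5 to 68.6 CPM in Leydig, 81.7 to 87.9 CPM in Interstitial and 24.3 to 25.4 CPM in Sertoli, with a smaller difference between the first pair (-0.33 ± 0.07, edgeR adjusted p 0.00466).

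Keratins form filaments from a type I and a type II chain, and Krt8 (type II) with Krt18 and Krt19 (type I) are the keratins of simple epithelia. The 3 genes each ordered the populations in their own way. Krt19 (chromosome 11, 100140810 to 100148665) followed the membrane protein genes, at 4.81, 4.52 and 4.38 CPM in Leydig, 18.5, 13.5 and 16.2 CPM in Interstitial and 0.561, 0.411 and 0.619 CPM in Sertoli. Leydig minus Interstitial was -1.76 ± 0.18 (edgeR adjusted p 0.00014), and the 95% interval of that difference (-2.17 to -1.35) did not overlap those of Upk3b (-0.73 to -0.23), Tm4sf5, Lrrn4 or Upk1b. The Krt19 interval did overlap those of Bnc1 (-1.42 to -0.93) and Msln (-3.13 to -0.60). The difference between genes itself was not tested.

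Krt18 (chromosome 15, 102028180 to 102032027) was at 16.2, 14.8 and 16.9 CPM in Leydig, 29.9, 27.7 and 29.5 CPM in Interstitial and 21.9, 22.5 and 22.2 CPM in Sertoli. No populations overlapped, and Leydig was the lowest. Against Interstitial the difference was -0.88 ± 0.09 (edgeR adjusted p 0.000132). Interstitial was above Sertoli by 0.32 ± 0.09 (edgeR adjusted p 0.0116), a call lost without Sertoli pool A (0.30, edgeR adjusted p 0.0675).

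Krt8 (chromosome 15, 101996698 to 102004482) was at 27, 26.8 and 25.7 CPM in Leydig, 26, 26.9 and 26.2 CPM in Interstitial and 60.2, 61.4 and 57.2 CPM in Sertoli. Leydig and Interstitial overlapped, with a difference of 0.04 ± 0.07 (edgeR adjusted p 0.686; 95% interval -0.12 to 0.20), and its sign turned to -0.025 when libraries were scaled by size alone. Sertoli was higher than Interstitial by 1.26 on the log2 scale (Interstitial minus Sertoli -1.26 ± 0.07, edgeR adjusted p 1e-06). Krt8 has 1 named pseudogene in the annotation, and whether it shares reads was not tested. It also overlaps Gm36026, a long noncoding gene on the opposite strand that has no row in the count table.

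Krt8 and Krt18 are neighbours that point away from each other, with 23.7 kb between their starts. Per length of annotated exons, the ratio of Krt8 to Krt18 reads was 1.23, 1.33 and 1.12 in Leydig, 0.638, 0.713 and 0.652 in Interstitial and 2.02, 2.01 and 1.89 in Sertoli. Krt8 thus exceeded Krt18 in the Leydig and Sertoli libraries and was below it in Interstitial. The ratio of Krt19 to Krt18, likewise per length, was 0.23, 0.237 and 0.201 in Leydig, 0.478, 0.377 and 0.426 in Interstitial and 0.0198, 0.0142 and 0.0215 in Sertoli. These ratios are taken within a library and do not depend on the scaling between libraries.

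Interstitial against Sertoli asks how these genes differ between the populations labelled Interstitial and Sertoli. It shares the Sertoli libraries with the contrast used to choose them. In this comparison 8 of the 9 genes were higher in Interstitial and 1, Krt8, was higher in Sertoli by edgeR's test, where 32.7% of genes tested were called higher in Interstitial and 29.1% in Sertoli (61.8% in either direction). Without Msln, 7 of 8 were higher in Interstitial. Upk1b differed by 5.10 ± 0.33 on the log2 scale (Interstitial minus Sertoli, edgeR adjusted p 8.49e-07), and was 36-fold higher by mean CPM. Its value rests on few Sertoli reads and was 6.11 in lanes 1 and 2 and 4.57 in lanes 3 and 4. Krt19 (4.97 ± 0.28), Tm4sf5 (4.61 ± 0.25) and Upk3b (4.50 ± 0.14) were also higher in Interstitial, with edgeR adjusted p of 3.89e-08 to 4.81e-07, and their 95% intervals overlapped that of Upk1b. The order of these genes changed between settings, and Krt19 was above Upk1b with all 9 libraries (4.91 against 4.70). Lrrn4 (4.01 ± 0.13) and Bnc1 (4.01 ± 0.13) differed from Sertoli by nearly the same amount. The size for Msln (2.42 ± 0.64, edgeR adjusted p 0.00427) rests on 12 and 13 reads in the Interstitial pools.

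Leydig over Sertoli, which served to choose several of the genes, is described without a test. The log2 differences were 4.38 for Tm4sf5, 4.32 for Upk1b, 4.03 for Upk3b, 3.24 for Lrrn4, 3.21 for Krt19 and 2.83 for Bnc1. Msln was at 0.55, on 3 and 3 reads in Leydig and 2 and 2 in Sertoli. Krt18 (-0.56) and Krt8 (-1.22) were lower in Leydig. In that contrast 16.9% of all genes tested were called higher in Leydig and 20.6% in Sertoli (37.5% in either direction).

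**Figure D2:**
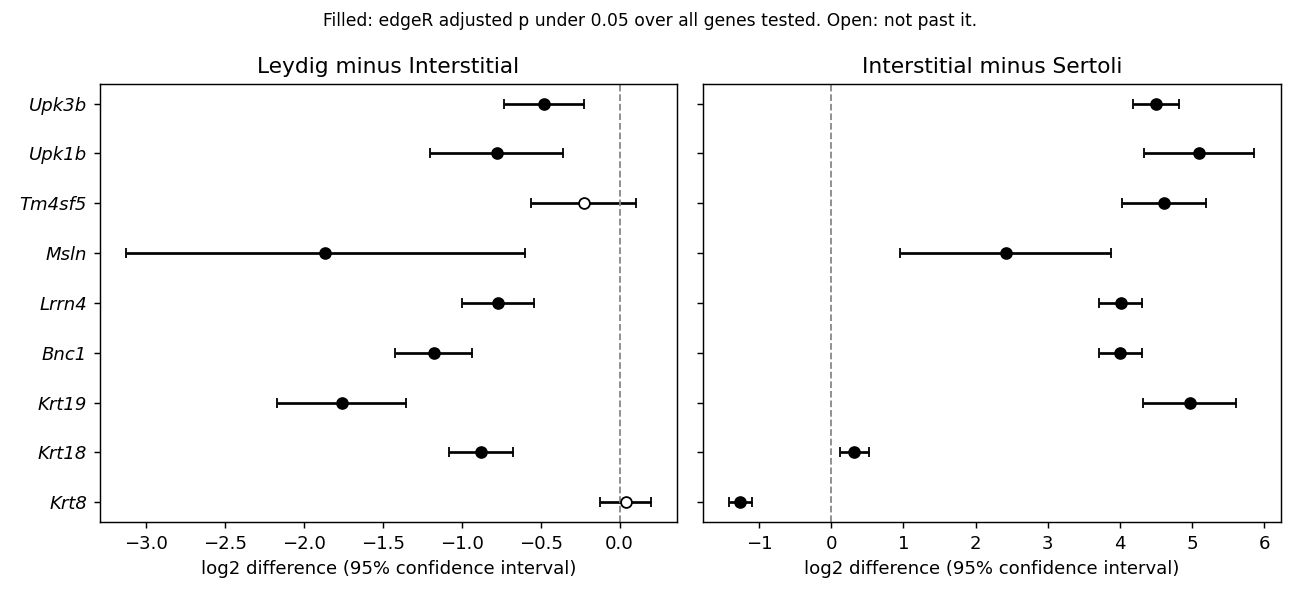
Log2 difference of each gene with its 95% confidence interval from the edgeR fit of pools A and B, for Leydig minus Interstitial (left) and Interstitial minus Sertoli (right), filled where the adjusted p is under 0.05. On the left all filled points lie below 0, Tm4sf5 and Krt8 are open, and on the right only Krt8 lies below 0.

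The authors' deposited table for Leydig against Interstitial, which lists genes changed at least 2-fold, held 2 of the 9, Krt19 (log2 -1.83) and Bnc1 (-1.23). The authors' deposited table for Interstitial against Sertoli held 7, all but Msln and Krt18, with log2 values from -1.15 for Krt8 to 4.92 for Krt19.

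Within a library, the reads of the genes can be set against those of Upk3b. Krt19 had 6.96, 7.49 and 6.53 reads per 100 Upk3b reads in Leydig, 18.3, 16.5 and 17.7 in Interstitial and 15.5, 10 and 14.8 in Sertoli. Its lowest Interstitial and Sertoli ratios were above its highest Leydig ratio. Bnc1 had 45.6, 51.8 and 45.2 in Leydig, 75.8, 82.2 and 78.5 in Interstitial and 134, 90 and 91.6 in Sertoli, so that all 3 populations were apart. Lrrn4 rose in the same order, from 37.9 to 42.1 in Leydig through 47 to 52.2 in Interstitial to 58.6 to 82.2 in Sertoli. Tm4sf5 (11 to 12.2 in Leydig, 9.23 to 11.1 in Interstitial, 7.86 to 10.9 in Sertoli) overlapped between neighbouring populations. Upk1b was lower in Leydig (11.6 to 12.9) than in Interstitial (13.7 to 16.5), and its Sertoli ratios (9.29 to 19.4) spanned both. Krt19, Bnc1 and Lrrn4 thus differed from Upk3b in how their reads were shared among the populations, and Upk1b did so between Leydig and Interstitial. No test was run on these ratios, and those of Sertoli rest on few reads.

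**Figure D3:**
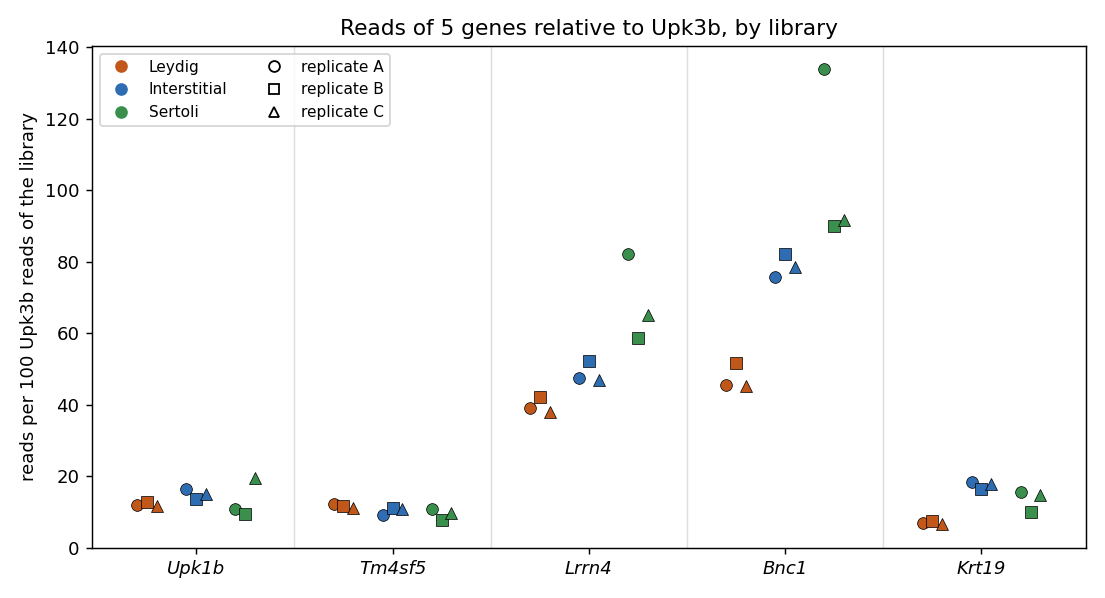
Reads of 5 genes per 100 reads of Upk3b in the same library (linear axis from 0), by population and replicate. Krt19, Bnc1 and Lrrn4 have their lowest ratios in the 3 Leydig libraries, while Tm4sf5 shows overlapping populations. Upk1b is lower in Leydig than in Interstitial, with Sertoli points that span both.

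Levels of different genes can be compared only per length. In Interstitial the mean CPM per kb of annotated exons over pools A and B was 25.8 for Upk3b, 20.1 for Krt18, 15.4 for Bnc1, 13.5 for Krt8 and 12.2 for Lrrn4. Below these came Krt19 (8.61), Tm4sf5 (8.16) and Upk1b (6.66), of which Krt19 overlapped both others over the libraries, and Msln was at 0.11. In Sertoli the order began with Krt8 (31.1) and Krt18 (15.5), and the next was Upk3b at 1.09 CPM per kb. The membrane protein genes and Krt19 were thus at the low end in Sertoli, where the keratin pair of Krt8 and Krt18 was the most abundant.

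The set was placed beside 22 other mesothelium and coelomic epithelium markers, of which 20 could be tested. This list was drawn up with earlier results of these data known. Against Sertoli, 13 were higher in Interstitial and 3 lower (65% and 15%, beside 32.7% and 29.1% of all genes tested). The median log2 difference was 0.99, and 0.04 over all genes tested. Between Leydig and Interstitial, 8 were higher in Interstitial and 4 in Leydig (40% and 20%, beside 23.2% and 22.0% of all genes tested). The median of Leydig minus Interstitial was -0.35, and 0.01 over all genes. Pkhd1l1 (-1.44 ± 0.11), the gene of the membrane protein fibrocystin-L, and the mucin gene Muc16 (-1.03 ± 0.22), the source of the CA125 antigen, were higher in Interstitial with edgeR adjusted p of 2.8e-05 and 0.0048, as was Slc9a3r1 (-1.91 ± 0.18, edgeR adjusted p 0.000115), an adaptor of microvilli. Higher in Leydig were the retinaldehyde dehydrogenase gene Aldh1a1 (2.74 ± 0.09), the homeobox gene Lhx9 (0.69 ± 0.07) and Wt1 (0.41 ± 0.06), with edgeR adjusted p of 5.04e-07, 0.00016 and 0.00075. Aldh1a1 and Wt1 were higher still in Sertoli, at 1117 to 1242 CPM and 353 to 377 CPM, and both are also made by Sertoli cells. The summed level of the list was lowest in Interstitial (1130 to 1162 CPM), above it in Leydig (1434 to 1543 CPM) and highest in Sertoli (1896 to 2015 CPM). Aldh1a1 was its most abundant gene in Leydig and Sertoli, at 422 to 486 CPM in Leydig but 66 to 75.1 CPM in Interstitial. The order of the sum therefore says little about most genes of the list. Anxa8 and Dmkn were too low to be tested. None of the 3 populations is labelled as mesothelium, so these values cannot decide whether the label of the set holds. Within the set, Msln was barely detected, and Krt8 and Krt18 ordered the populations differently from the rest.

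Upk3a, Tm4sf4 and Tm4sf20 had 3 reads or fewer in every library. Of 13 relatives 8 could be tested, with 2 higher in Interstitial and 1 in Leydig (25% and 12.5%, beside 23.2% and 22.0% of all genes; median -0.15, and 0.01 over all genes). Upk2, another uroplakin gene, was at 0.892, 1.02 and 1.09 CPM in Interstitial and at most 0.202 CPM elsewhere. With so few reads in Leydig and Sertoli, Upk2, like Msln, could be tested only through Interstitial, and its call is given no weight. Lrrn3 went the other way and was higher in Leydig (1.28 ± 0.11, edgeR adjusted p 5.08e-05).

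Among 12 other keratins, 8 could be tested, 4 were higher in Interstitial than in Leydig and none in Leydig (50% of those tested, beside 23.2% of all genes; median -0.99, and 0.01 over all genes). Krt7, a type II keratin of simple epithelia, was at 16.8 to 17.4 CPM in Leydig, 32.7 to 36.1 CPM in Interstitial and 6.27 to 6.92 CPM in Sertoli, the same order as Krt19. Krt17 (-1.82 ± 0.38) and Krt15 (-1.14 ± 0.30) were called at edgeR adjusted p of 0.0039 and 0.0131, and both stayed under 2 CPM in every library. Krt222 (-2.63 ± 0.51, edgeR adjusted p 0.00337) was at 0.662 CPM in Leydig pool A and 3.37 CPM in pool B.

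Markers of other epithelia and of blood also differed between Leydig and Interstitial. Beside the counts given here, 23.2% of all genes tested were called higher in Interstitial and 22.0% in Leydig. Mesonephric tubule markers, the epithelium of which also makes simple keratins, summed to 77.3 to 96 CPM (10 genes) in Interstitial, 10.4 to 18.4 CPM in Leydig and 9.71 to 10.8 CPM in Sertoli, and 9 of 10 were higher in Interstitial than in Leydig. Its members Wnt9b and Sim1 had 3 reads or fewer in every Leydig and Sertoli library. Interstitial pool A was the lowest of the 3 Interstitial libraries in these markers and the highest in Krt19, Upk1b and Upk3b. Macrophage markers (69.7 to 107 CPM in Interstitial, 24.6 to 39 CPM in Leydig), germ cell markers (1001 to 1126 against 70.4 to 277 CPM) and erythroid markers (11850 to 12470 against 141 to 502 CPM) were higher in Interstitial in 10 of 11, 10 of 10 and 9 of 9 genes tested. Endothelial markers were at 284 to 323 CPM in Leydig and 288 to 336 CPM in Interstitial, and stromal markers at 1591 to 1772 and 1467 to 1579 CPM. Of 12 endothelial genes tested, 7 were higher in Leydig and 2 in Interstitial (58.3% and 16.7%, median log2 difference 0.52). Of 8 stromal genes 3 were higher in each (37.5% both ways). The part of these cells in the differences of the 9 genes was not tested. Leydig pool B had more mesonephric (18.4 against 10.4 CPM), germ cell (277 against 70.4 CPM) and erythroid RNA (502 against 141 CPM) than pool A. The A to B ratios of Upk3b, Upk1b, Tm4sf5, Lrrn4, Krt19 and Bnc1 in Leydig were 1.01 to 1.19. Any relation between these pool differences was not tested.

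**Figure D4:**
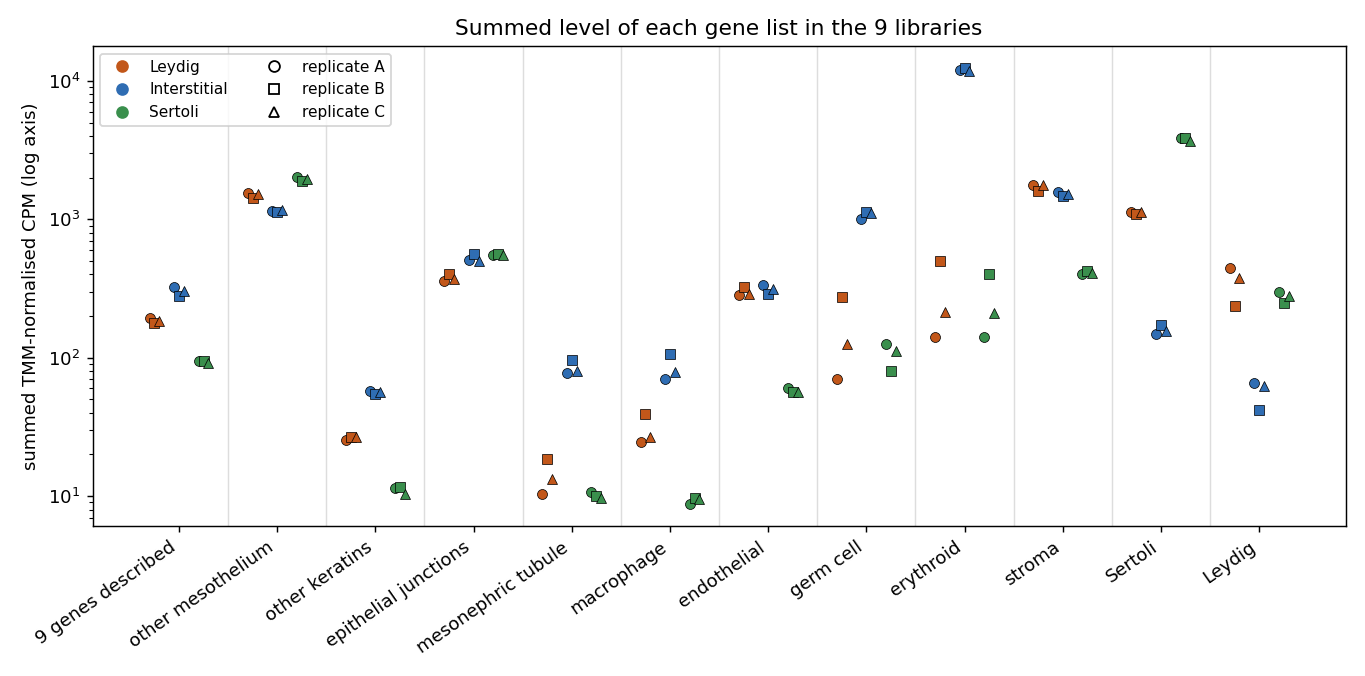
Summed TMM-normalised CPM (log axis) of the 9 genes and of each marker list, by library. The 9 genes sum to 280 to 326 CPM in Interstitial, 178 to 193 CPM in Leydig and 92.1 to 95.2 CPM in Sertoli, and the mesonephric, macrophage, germ cell and erythroid sums are also highest in Interstitial. The other mesothelium sum is lowest in Interstitial (1130 to 1162 CPM) and highest in Sertoli (1896 to 2015 CPM). A large part of it is 1 gene, Aldh1a1, at 66 to 75.1 CPM in Interstitial and 1117 to 1242 CPM in Sertoli. Of the 20 genes of that list tested, 13 were higher in Interstitial than in Sertoli and 3 lower.

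Genes with the most similar profiles were found over the 9 libraries among 12115 genes with at least 5 CPM in their highest population, as the smallest root mean square difference of log2 CPM after centring each gene. The libraries share 3 populations, so the measure mostly reflects 3 levels. Wnt2b, a Wnt ligand gene, was nearest to Bnc1 (0.146), at a mean of 12.8, 28 and 1.4 CPM in Leydig, Interstitial and Sertoli (pools A and B). Tmem151a was nearest to Upk3b (0.293) and Tm4sf5 (0.296), and Myocd, the gene of a coactivator of smooth muscle genes, was second for Tm4sf5 (0.36). Dcn, which encodes the matrix proteoglycan decorin, was among the nearest genes of Lrrn4 (0.184) and Bnc1 (0.179).

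Among the members themselves, Upk3b and Tm4sf5 (0.147) and Lrrn4 and Bnc1 (0.195) were the closest pairs. Krt19 was nearest to Kcnj8 (0.203), S100a6 (0.222) and Rspo3 (0.251), which had 5.07, 12.6 and 5.86 CPM in Interstitial. Krt8 was nearest to Pdgfa, a platelet-derived growth factor gene (0.0703, with 31.2, 29.3 and 73.1 CPM in Leydig, Interstitial and Sertoli), followed by Syt2 and Aldoc. Krt18 was nearest to Klhl8 (0.105), L3mbtl2 (0.113) and Tmem254c (0.115), at 39.2 CPM in Interstitial for L3mbtl2. Msln, too low for a shape of its own, had Hip1r, Gpld1 and Coprs as its nearest genes.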

How the data were processed

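RNA was sequenced from 3 sorted populations with 3 libraries each, in 4 lanes. Libraries were stranded and ribosome-depleted, per the labels' protocols. The tools named in the submitters' processing notes are TopHat2 2.0.6, HTSeq and limma, with the build mm10. Which annotation and strand option were used for counting is not stated in the labels. The deposited count table holds raw counts per gene, library and lane, with 5 summary lines that were left out (no feature, 32.2 to 38.5% of reads, ambiguous 0.62 to 0.77%). The authors also deposited limma tables, whose log2 fold changes, p-values and score columns (t and log odds) are named per the file headers.

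Lanes were summed (33.12 M to 39.24 M reads in genes). A count of 0 allows up to 3 reads, 0.0764 to 0.0906 CPM. Symbols, coordinates and exon lengths came from GENCODE M21 (GRCm38, also called mm10), which named 36722 of 38560 genes, and 34 more came from the authors' tables. Pools A and B of all 3 populations were fitted with edgeR 4.0.16 in R 4.3.3 (TMM, filterByExpr, quasi-likelihood test, 3 residual degrees of freedom), and p-values were adjusted by Benjamini-Hochberg over 18048 genes. Standard errors (SE) and 95% intervals are from the fitted weights and the moderated dispersion. CPM values use TMM factors over all 9 libraries, means use A and B. P-values measure the spread between pools, which are not single animals. The fit was tested on simulated data with known changes. Alternatives were RLE factors, DESeq2 1.42.0, other filters, all 9 libraries, single lane pairs, each pool left out, and a block for the replicate letter. Genes named were the 9 members, the 3 most similar genes of each, and at most 3 per list and direction with the largest called Leydig to Interstitial difference, apart from 1 gene that is not reported here; others (Krt7, Cdh1, Anxa8, Dmkn, Upk3a, Tm4sf4 and Tm4sf20) were chosen after their values were seen. The members and lists were chosen with earlier results of these data known.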

Additional observations from a re-analysis of the deposited data

How the results depend on the processing

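Over 15 alternatives, 253 of 264 member results in the 2 tested comparisons kept their direction and side of the threshold, 9 lost the call, 1 gained it (Tm4sf5) and 1 changed sign (Krt8, Leydig minus Interstitial, -0.025 with library size only, which was never called). Msln lost its call 5 times against Leydig and 1 time against Sertoli, and was not tested with a filter at 1 CPM or with 2 lanes. The number of genes higher in Interstitial than in Leydig ranged from 4 to 7 with 1 pool left out, the 4 without Interstitial pool A, where a lone Interstitial sample is assumed to vary like the others. No other count of calls moved by over 1.5 times. The replicate letter as a block (replicate block) gave 7 genes higher in Interstitial than in Leydig and 8 higher than in Sertoli, as without it, and raised the calls over all genes from 8146 to 9364 and from 11155 to 12013. The letters are not stated to pair the samples, and the A minus B deviations correlated by 0.248, 0.018 and 0.1 between populations over 18048 genes. Scaling by library size only, an alternative added after seeing the data, moved the median of all genes by -0.064 (Leydig minus Interstitial), 0.168 (Interstitial minus Sertoli) and 0.102 (Leydig minus Sertoli), and the share of calls towards the first population from 48.7 to 40.2%, from 52.9 to 65.2% and from 45.1 to 58.8%. Depth limits Msln, and in Sertoli also Upk1b, Tm4sf5 and Krt19, with 11 to 30 reads each.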

Other observations

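Of 23 genes of epithelial junctions, 16 were higher in Interstitial than in Leydig and 4 in Leydig by edgeR. These are 69.6% and 17.4%, beside 23.2% and 22.0% of all genes tested. The median log2 difference was -1.91, and 0.01 over all genes tested. The tight junction genes Cldn4 (-4.28 ± 0.40), Cldn7 (-3.47 ± 0.30) and Ocln (-2.85 ± 0.32) had edgeR adjusted p of 3.94e-05 to 0.000194. Cdh1, the gene of E-cadherin, was at 40.6, 49.2 and 42 CPM in Interstitial and at 2.62, 10.1 and 6.03 CPM in Leydig, where pool B was the highest. The desmosome genes Dsg2 (0.84 ± 0.16), Dsp (0.77 ± 0.08) and Jup (0.69 ± 0.07) were higher in Leydig than in Interstitial, with edgeR adjusted p of 0.000137 to 0.00339. Dsp was higher still in Sertoli, at 220 to 228 CPM against 82.5 to 87.9 CPM in Leydig, and so shared with Krt8 its highest population.

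The 2 Interstitial pools differed unevenly across the 9 genes. Interstitial A was 1.5 times B in Upk1b, 1.37 times in Krt19 and 1.24 times in Upk3b, and the difference in Tm4sf5 was 1.03-fold. Replicate C lay between A and B in Interstitial for 8 of the 9 genes, Tm4sf5 being the exception, but for 2 of 9 in Leydig and 3 of 9 in Sertoli. The share of all genes with C between A and B was not determined, so nothing is read from these counts. In Leydig the A to B ratios of the genes other than Msln were 1.01 to 1.19.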
